A study of Mus musculus with 8 samples.

Results

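The genes of the cytoplasmic ribosome were examined in the left and right heart field of the mouse embryo. Members were the protein-coding genes whose symbol is Rpl or Rps followed by a number with an optional letter, together with Rpsa, Rplp0, Rplp1 and Rplp2. This rule uses names and no measured value, and it gave 80 of the 48526 genes in the count table, 49 of the large and 31 of the small subunit. Pseudogenes, the Rps6k kinases and the mitochondrial ribosomal genes were left out by their names.

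A left and a right library came from every embryo, and values listed by embryo below follow the order L29-3, L43-5, L46-8, L49-3 (4 pairs, 8 libraries). All were wild-type males of the C57bl6/J strain at stage E8.5f, with no allele or treatment that differs between groups. The heart field was cut out by hand at the midline, and poly-A RNA of each side was sequenced on its own. The dissected piece holds several cell types, and in such bulk samples fewer cells of a type and less RNA per cell cannot be told apart.

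A ribosome is built from ribosomal RNA and about one copy each of its proteins, so that the ribosomal protein genes are usually transcribed and translated in concert. Their mRNAs begin with a run of pyrimidines, the 5′ terminal oligopyrimidine (TOP) motif, through which mTORC1 and Larp1 adjust their translation to growth. Most of these genes have also left processed pseudogenes in the genome, intronless copies of the mRNA that were inserted by reverse transcription. Mutations of single members give tissue-specific disorders in people, such as Diamond-Blackfan anaemia, or congenital absence of the spleen for RPSA.

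The start sites of members named in the results are shown first, because the pyrimidine run is the sequence feature these genes are known for. Each window holds the 14 bases before and the first 16 bases of the annotated transcript start in RefSeq (GRCm38.p6), read 5′ to 3′ on the strand of the gene. Capitals mark a run of at least 8 C or T bases that touches the 10 bases on either side of the start.

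Rpl27a, chr7:109519181-109519210, plus strand: acttcgtgagCTCCTCCCTTTTCCCTTTCT
Rps10, chr17:27635229-27635258, minus strand: cgccgcgcacgCCCCTTCCTTTCCagcctc
Rps9, chr7:3704027-3704056, plus strand: ccgccttgTCTCTCTTTgtctcgggcctga
Rpl35, chr2:39005116-39005145, minus strand: ggccccgCCCTTTCCTCTTTCTCTCgaacc
Rps6, chr4:86857352-86857381, minus strand: agcggaagtcgggCCTCTTTTTCgtgacgc
Rpl38, chr11:114668566-114668595, plus strand: gcggaagcctcgTTCTTTCCCCgttctctt
Rps2, chr17:24720049-24720078, plus strand: ggcagtcgagatctcgcgcttcttggagca
Rpl24, chr16:55966261-55966290, plus strand: gaaagctgttgctaggaaacagactgggcg
Rpl3l, chr17:24727812-24727841, plus strand: agtgttctagctctgtcatttgacctctgg
Rpl10l, chr12:66284386-66284415, minus strand: ttggcctccattttgcggctggcggtgggc
Rpl39l, chr16:10170214-10170243, plus strand: tcccaggcctttccggatttccggtggtcg

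The first 6 windows hold such a run and the last 5 do not, including those of Rpl3l, Rpl10l and Rpl39l, which were the only members without a testable count. Only the first entry of each gene in the promoter table was used, so other annotated starts were not examined. The window of Rps2 lies inside the annotated gene, which begins at chr17:24718116. Of the 60 members with an entry in the promoter table, 26 (43.3%) had a run of this length near the start, against 13.5% of all 27025 genes in that table. The sequence CCGGAAG, a core recognized by ETS factors, was searched on both strands over the whole window of 300 bases. It was found in 24 of the 60 members (40.0%) and in 9.12% of all genes; its reverse complement CTTCCGG can share bases with a C or T run. A match is a description of the sequence, and no match says only that these letters are not in the window.

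Library totals lay between 1147446 and 3520753 counts after the authors' removal of duplicate reads, and both libraries of L49-3 were the smallest. A count of 0 allows up to 3 counts, which is 0.852 CPM (counts scaled to a total of 1e6) in the largest library and 2.61 CPM in the smallest, for counting error only. All 7 genes of the second heart field list (Isl1, Six2, Fgf8, Fgf10, Tbx1, Mef2c, Hand2) were detected, with a summed level of 340 to 503 CPM scaled by TMM, a normalization for library composition. The summed cardiomyocyte genes (8 genes) ranged from 383 to 3059 CPM, neural tube genes (6 genes) from 66.2 to 338 CPM and primitive blood genes (6 genes) from 0.669 to 17.2 CPM. In L49-3 the juxta-cardiac field genes Tbx5, Mab21l2 and Hand1 summed to 25.9 CPM on the left and 28.0 CPM on the right, against 110 to 229 CPM in the other libraries, so that this embryo stood apart from the rest.

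Transcripts of 77 members passed the filter on low values, set at 20 normalized counts or more in 4 or more of the 8 libraries. The 3 others are paralogues with a known restricted expression. Rpl3l, a paralogue of Rpl3 made in mature heart and skeletal muscle, had 0 counts in all 8 libraries, and so had Rpl10l, the autosomal copy of Rpl10 used in the testis. Rpl39l, a paralogue of Rpl39 also known from the testis, had 2 counts in all, 1 in the right library of L43-5 and 1 in the left library of L46-8. The partners that these genes can replace were well detected, Rpl3 at 336 ± 21.4, Rpl10 at 217 ± 18.7 and Rpl39 at 116 ± 13.5 CPM per kilobase of exon (mean ± SD, n = 8 libraries). Rps27l, a p53-responsive paralogue of Rps27, was lower than Rps27 at 83.9 ± 15.9 against 187 ± 23.2 CPM per kilobase. The X-linked Rps4x stood at 455 ± 33.6 CPM per kilobase, while Rps4l, annotated as a transcribed pseudogene and thus no member, had 74 to 230 counts per library.

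Levels per length spread widely among the tested members. The highest was Rplp1, a protein of the stalk that recruits translation factors, at 1774 ± 232 CPM per kilobase. It was followed by its stalk partner Rplp0 at 1134 ± 96.1, then by Rps15 at 951 ± 109, Rpl4 at 866 ± 38.0 and Rpl8 at 715 ± 52.9. The ranges of Rps15 and Rpl4 overlap, so that their order is within the spread of the libraries.

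The lowest tested member was Rpl24, which joins the large subunit late in assembly, at 16.0 ± 4.29 CPM per kilobase. Rpl13a had 41.5 ± 2.47, Rpl21 had 44.0 ± 3.58 and Rps15a had 44.5 ± 4.80, values within their spreads of each other. The median was 214 CPM per kilobase over the 77 members, and the highest level was 111 times the lowest. These levels rest on the union of all annotated exons, which is long for genes with retained introns. Per kilobase of the shortest principal transcript, a length chosen after seeing the data, the middle quartiles of the members drew together to a ratio of 1.87 in place of 2.74, Rplp2 moved from rank 36 to rank 5 and Rps15a from rank 74 to rank 59. Rpl24 was lowest at both lengths and Rplp1 highest. Rpl24 and Rpl13a also share exon bases with another gene on the same strand, given below, and the part of this overlap in their levels was not tested. The place of Rpl24 depends on which rows are counted, as most reads of its sequence were assigned to the near-identical rows described next. With these rows added, over the exon length of the member, Rpl24 stood at 103.8 ± 26.7 CPM per kilobase (rank 71 of 77), Rps15a was lowest at 57.7 ± 7.99, Rplp1 was still highest at 2001 ± 296, and the highest level was 34.7 times the lowest.

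**Figure D1:**
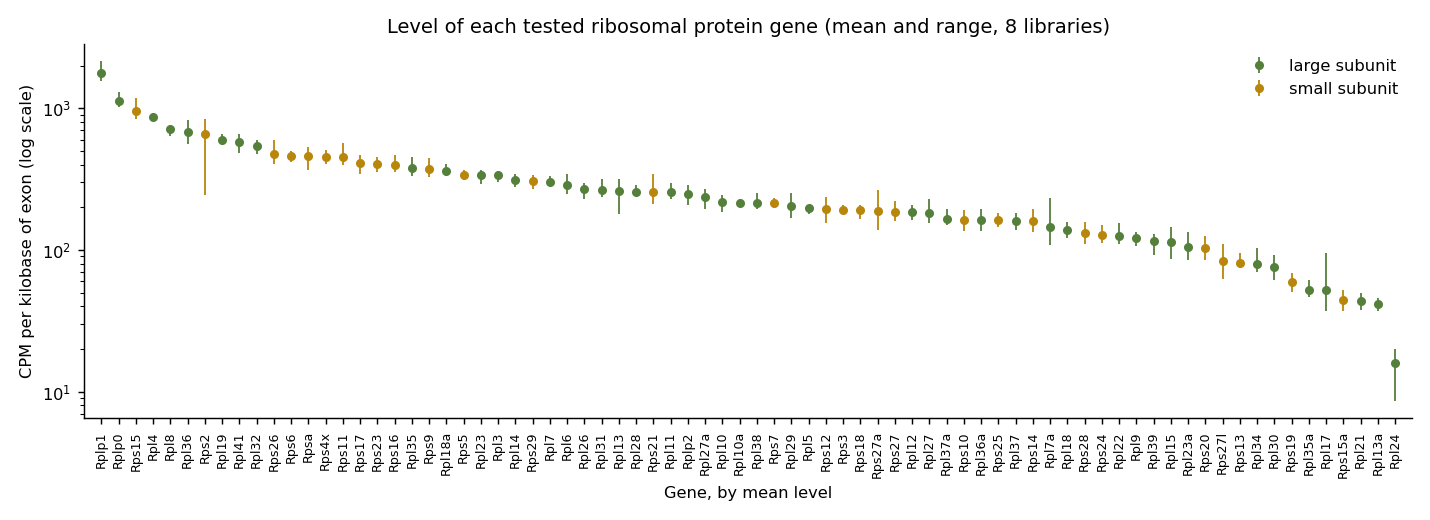
Level of the tested ribosomal protein genes in CPM per kilobase of exon on a log axis, ordered by mean; points are means of 8 libraries and lines run from the lowest to the highest library, colored by subunit. Rplp1 at 1774 and Rpl24 at 16.0 form the ends, and the lower and upper quartiles are 137 and 377.

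The count of a ribosomal protein gene leaves out reads that were assigned to its near-identical rows, the other genes whose transcript matches it at 90% identity or more over at least 100 bases. There were 1035 such rows, 938 of them pseudogenes, and 698 had counts. Together they held 155317 counts against 639997 in the members, so that 19.5% of the family counts lay outside the genes themselves. The share was below 5% for 11 members, among them Rpl4 (0.826%), Rps9 (2.37%) and Rplp2 (0%). It was above 50% for 5 members, with 84.0% for Rpl24, 78.5% for Rpl17, 67.8% for Rpl23a, 65.0% for Rpl21 and 53.9% for Rpl29.

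The coding stretches below show how close a member and such a row can be. Gm9385, a pseudogene at chr9:116040593-116041064 on the minus strand (GRCm38), aligned to Rpl24 (chr16:55966275-55971435, plus strand) over 472 bases with 1 difference. It held 884 counts, more than the 262 counts of Rpl24. Rps2-ps13, at chrX:52898588-52899469 on the plus strand, aligned to Rps2 (chr17:24718116-24721929, plus strand) over 882 bases with 7 differences and held 1588 counts. The capitals mark the base that differs within the stretch shown, which covers coding bases 283 to 342 of Rpl24 and 270 to 329 of Rps2.

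Rpl24: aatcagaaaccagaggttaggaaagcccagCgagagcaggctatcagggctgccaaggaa
Gm9385: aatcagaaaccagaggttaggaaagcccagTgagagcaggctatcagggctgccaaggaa
Rps2: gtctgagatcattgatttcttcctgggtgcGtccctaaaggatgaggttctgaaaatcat
Rps2-ps13: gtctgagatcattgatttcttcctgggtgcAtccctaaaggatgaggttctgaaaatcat

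The longest stretch without a difference was 313 bases for Rpl24 and Gm9385 and 302 bases for Rps2 and Rps2-ps13, longer than a read of 130 bases. In 66 members the longest identical stretch was at least a read long, and their median share of counts in near-identical rows was 21.6%. In the 11 other members with counts it was 1.12%. The setting for reads that map to several places is not given in the sources used here, so the count of Rpl24, Rpl17 and the other genes with high shares is uncertain. Exons of 21 members overlap those of another gene, small RNA genes left out. Overlaps on the opposite strand were as long as 953 bases, for Rpl5 with Fam69a, and the strand setting is not given either. Exons of 4 members overlap those of another gene on the same strand. Rpl13a shares 621 bases with Gm45713 and Rpl24 shares 484 with Gm28037, rows that had 0 counts in every library, and Rpl19 shares 36 with Gm11629, which had 1 count. Rps10 shares 475 bases with the readthrough gene RPS10-NUDT3, which was not analysed here. The handling of reads in bases shared between genes is not given in the sources used here. A partner row with 0 counts therefore does not show that the overlap left the count of the member unchanged. The counts of Rpl13a and Rpl24 are uncertain for this reason too.

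**Figure D2:**
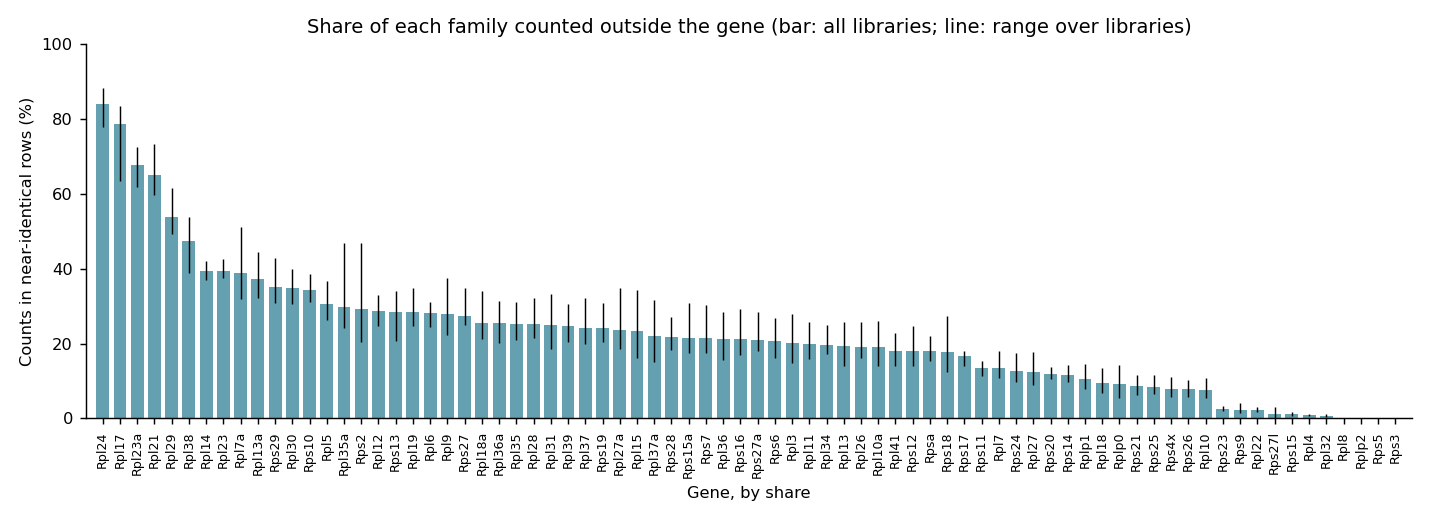
Share of the counts of each family, a member plus its near-identical rows, that was assigned to the near-identical rows, in percent; bars pool the 8 libraries and lines give the range over libraries. The share falls from 84.0% for Rpl24 to 0% for Rplp2, with a median of 21.0% over the 77 members.

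Left and right heart fields were compared to find genes with asymmetric expression at the time of heart looping. The ribosomal protein genes showed little difference between the sides. Only Rps2 passed the threshold of the study, a 1.2-fold change and an unadjusted p of 0.05 or less, which is 1 of 77 members (1.30%) against 3.05% of the 9744 genes tested. The paper listed genes that met these cutoffs in any of limma-voom, DESeq2 and edgeR, while here they were applied to the edgeR fit. In the quasi-likelihood test of edgeR, blocked by embryo, no member had an adjusted p under 0.05 (0 of 77, with 0 in DESeq2 and limma-voom too), against 0.0103% of all genes. At an unadjusted p under 0.05 there were 3 members (3.90%), Rps2, Rpl27a and Rps10, against 4.36% of all genes; Rpl27a and Rps10 are named after their values were seen. This count depended on the fit. It was 11 (14.3%, against 4.31% of all genes) without L43-5, all 11 lower on the left, 7 (against 3.53%) with no filter and 4 or 5 when another embryo was left out. With no replicate block it was 1 (against 3.28%), Rpl27a, and DESeq2 gave 1 member too (against 0.667%).

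The median log2 fold change of left over right was -0.03 over the 77 members and -0.00 over all genes tested. Of the members, 62 of 77 had a lower value on the left, against 5010 of the 9744 genes tested. The 95% interval of 56 members (72.7%) lay within a 1.2-fold difference either way, against 18.8% of all genes. The median count per library was 914 for the members and 100.1 for all genes tested, and the part of depth in the width of the interval was not tested. The large subunit (46 tested, median -0.04) and the small subunit (31 tested, median -0.03) had similar medians, and 5 members pointed the same way in all 4 embryos (6.49%, against 12.4% of all genes), Rps2, Rpl27a, Rps10, Rpl4 and Rpl24.

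**Figure D3:**
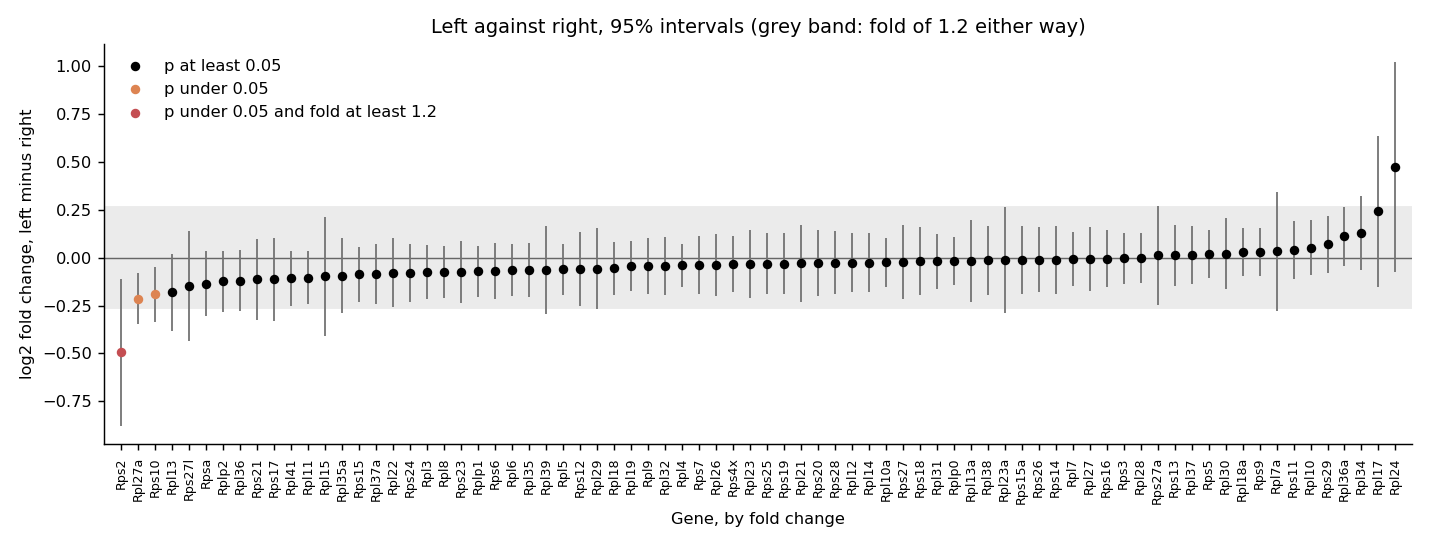
Log2 fold change of left over right for the tested members with 95% intervals from the edgeR fit, ordered by value; the grey band is a 1.2-fold difference either way. Rps2 at -0.49 and Rpl24 at 0.47 form the ends, and most intervals lie wholly inside the band.

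Rps2 encodes a protein at the mRNA entry side of the small subunit. Its normalized read counts (DESeq2 size factors) were 1942, 838, 2337 and 2936 on the left by embryo, and 2343, 2337, 2780 and 2922 on the right. The left library of L43-5 was by far the lowest of the 8, and the values of the sides otherwise overlapped. By embryo, log2 ratios of left over right on the TMM scale were -0.26, -1.48, -0.26 and -0.00. The log2 fold change was -0.49 (SE 0.18, unadjusted p = 0.0161, adjusted p = 0.987 in edgeR). Without L43-5 it was -0.18 and no longer past the threshold. DESeq2, with -0.50, and edgeR without the replicate block, with -0.37, did not call it either. DESeq2 called 0.606% of all genes past the threshold, against 3.05% in the main fit of edgeR.

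Rps2 has 62 near-identical rows, the counts of which did not follow those of the gene. In L43-5 these rows held 1132 counts in the left and 1129 in the right library, while Rps2 itself had 1286 and 4380 counts. When the rows were added to the gene, the family still had 844 CPM in the left library of L43-5 against 1450 to 2268 CPM in the other 7, with a log2 fold change of -0.36 (SE 0.11, edgeR unadjusted p = 0.00744). Over all 77 families, with near-identical rows summed, only that of Rps2 passed the threshold of the study, against 3.07% of 9624 rows, and no adjusted p was under 0.05, against 0.0208%. There were 5 families with an unadjusted p under 0.05 (6.49%, against 4.49% of rows), 14 without L43-5 (against 4.33%), 2 without L46-8 and 0 with no replicate block (against 3.37%). DESeq2 called 0 families past the threshold of the study, against 0.603% of rows. Of the families, 68 of 77 had lower values on the left, against 4937 of 9624 rows, and their median was -0.07.

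Rpl27a, a protein of the large subunit, had 1171, 1014, 1109 and 1297 normalized counts on the left by embryo, and 1281, 1216, 1378 and 1428 on the right. Every left library was below its right partner, although the sides overlapped as groups. The difference of -0.22 (SE 0.06, unadjusted p = 0.00416, adjusted p = 0.987 in edgeR) was below 1.2-fold. Rps10, one of the Diamond-Blackfan genes, was also lower on the left in all 4 embryos, by -0.19 (SE 0.07, edgeR unadjusted p = 0.0140). Rpl4, a core protein of the large subunit, pointed the same way in the 4 embryos too, but by -0.04 only (edgeR unadjusted p = 0.440).

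Rpl24 was the member with the largest value in the other direction. Its normalized counts were 26.8, 38.5, 39.1 and 37.2 on the left and 22.3, 16.5, 36.8 and 33.2 on the right. The left was higher in 4 of 4 embryos, with overlap between the groups, and the log2 fold change of 0.47 (SE 0.25, unadjusted p = 0.0836 in edgeR) did not pass. L43-5 had the widest gap, a log2 ratio of 1.17 against 0.076 to 0.26 elsewhere, and the fold change fell to 0.16 on the log2 scale when it was left out. With its near-identical rows, which hold most of the family counts, the value was -0.12 (unadjusted p = 0.391), so that even its direction depends on which rows are counted. Rpl17, a protein at the peptide exit, behaved alike, with 0.24 (unadjusted p = 0.207) for the gene and -0.09 (unadjusted p = 0.293) for the family. Its left library of L46-8 stood apart at 240 normalized counts against 92.4 to 146 elsewhere.

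Members with functions outside the ribosome or in disease did not pass the threshold of the study. Rpl5 and Rpl11, which bind Mdm2 together with 5S ribosomal RNA when ribosome assembly fails, gave -0.06 (95% interval -0.19 to 0.07) and -0.10 (-0.24 to 0.03). For Rps6, the substrate of the S6 kinases, the value was -0.07 (-0.22 to 0.08). Rps19, the gene most often mutated in Diamond-Blackfan anaemia, had -0.03 (-0.19 to 0.13). All 4 intervals, which rest on the counts of the genes alone, exclude a 1.2-fold difference in either direction. With near-identical rows added, Rpl5 had -0.09 (SE 0.07), Rpl11 -0.12 (SE 0.07), Rps6 -0.10 (SE 0.08) and Rps19 -0.03 (SE 0.07). Intervals of these families were not computed, so the exclusion holds for the gene rows only.

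Rpl38, which is needed for translation of Hox mRNAs in the mouse axis, gave -0.01 (-0.19 to 0.17). Rpsa, the laminin receptor homologue, gave -0.14 (-0.31 to 0.04), and here a difference of 1.2-fold toward the right is not excluded. The stalk genes Rplp0, Rplp1 and Rplp2 had -0.02, -0.07 and -0.12, none past the test. The X-linked members Rpl10, Rps4x, Rpl39 and Rpl36a had 0.05, -0.04, -0.06 and 0.11. Rpl3 had -0.08, and the pair of Rps27 and Rps27l had -0.02 and -0.15. Of the 19 Diamond-Blackfan members, 0 passed that threshold, against 3.05% of all genes. Among the 19, 1 (5.26%), Rps10, had an unadjusted p under 0.05 in edgeR, against 4.36% of all genes.

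The neighbours of these genes in the pathway were read from the same edgeR fit. Over all genes tested, 3.05% passed the threshold of the study and 4.36% had an unadjusted p under 0.05. Of 16 other genes with TOP mRNAs, such as Eef1a1 and Npm1, 0 passed the threshold (0 at an unadjusted p under 0.05) and their median was -0.05. Of 35 ribosome biogenesis factors 1 (2.86%) fell, Rrp9 of the small nucleolar particle (-0.34, SE 0.11, edgeR unadjusted p = 0.00890). Of these factors, 2 (5.71%) had an unadjusted p under 0.05. Of 16 tested S6 kinase and mTORC1 genes 1 (6.25%) rose, Rps6kb2 (0.41, SE 0.18, edgeR unadjusted p = 0.0456). In this list, 2 genes (12.5%) had an unadjusted p under 0.05. Of the ribosomal proteins that the naming rule misses, Rps3a1, Fau, Rack1, Rpl22l1, Rpl36al and Rpl7l1 did not pass. Of 77 tested mitochondrial ribosomal genes 0 passed (0 at an unadjusted p under 0.05), with a median of -0.06. None of these had an adjusted p under 0.05.

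By embryo, the members took 3.68%, 3.92%, 3.60% and 4.40% of the left libraries and 3.76%, 3.82%, 4.07% and 4.46% of the right libraries. The mean share was 3.90% ± 0.360 in left and 4.03% ± 0.318 in right libraries (SD, n = 4). The left was higher in 1 of 4 embryos, and the log2 ratio of -0.05 was smaller than its SD of 0.09 (two-sided exact sign-flip permutation test, p = 0.5, where the smallest p that 4 pairs allow is 0.125). The ratio of large to small subunit counts stayed between 1.38 and 1.45 in all 8 libraries.

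**Figure D4:**
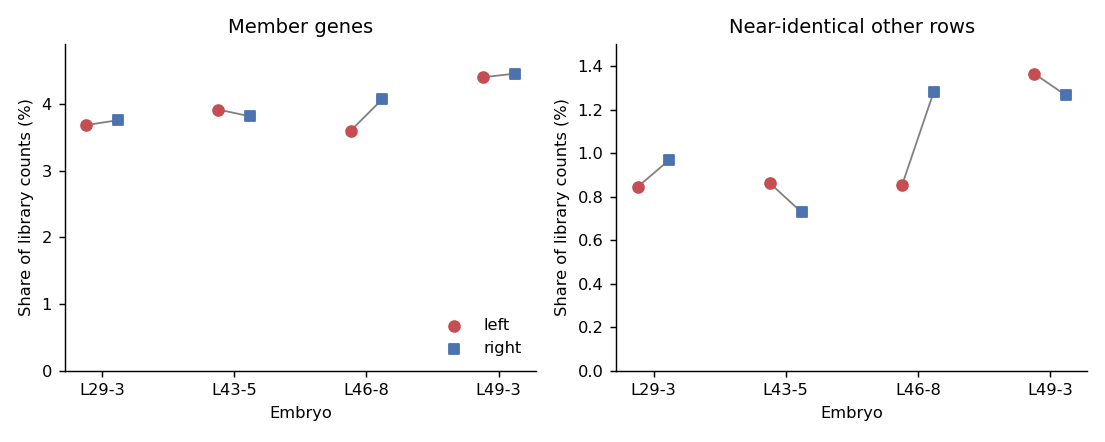
Share of library counts in percent taken by the 80 member genes and by their near-identical rows, for the left (circles) and right (squares) library of each embryo joined by a line, with both axes starting at 0. Both libraries of L49-3 have the highest member shares, 4.40% and 4.46%, and the widest gap between sides is in L46-8, 3.60% against 4.07%.

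Within some embryos, most members pointed the same way by small amounts. In L46-8 the left was lower for 70 of 77 members, with a median log2 ratio of -0.22, and in L43-5 it was higher for 64, with a median of 0.09. In L29-3 it was lower for 55, with a median of -0.06, and in L49-3 the members were split, with 43 lower, 34 higher and a median of -0.01. The medians of all genes tested lay between -0.00 and 0.01 in the 4 embryos. The opposite signs in L46-8 and L43-5 leave the average near 0, and without L46-8 the median over the members was 0.01 with 33 lower on the left. In L46-8 the summed neural tube genes were 66.2 CPM on the left and 200.2 CPM on the right, the cardiomyocyte genes 1913 and 1088 CPM, and the juxta-cardiac genes 229 and 110 CPM. In L49-3 the neural tube genes were 288 CPM on the left and 338 CPM on the right. There the cardiomyocyte genes were 383 and 1235 CPM, and the juxta-cardiac genes 25.9 and 28.0 CPM. The part of these tissues in the difference was not tested.

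More members differed between embryos than between sides at the unadjusted level. Between embryos, 32 of 77 members (41.6%) had an unadjusted p under 0.05 in edgeR's F test, against 9.99% of all genes. No member had an adjusted p under 0.05, against 0.174% of all genes. The direction was shared, with 73 members (94.8%) highest in L49-3, against 31.0% of all genes. These were 42 of 46 in the large and 31 of 31 in the small subunit, and Rpl13a, Rpl15, Rpl24 and Rpl17 were the exceptions. The median deviation of L49-3 from the mean of the 4 embryos was 0.19 on the log2 scale for the members and -0.00 for all genes.

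**Figure D5:**
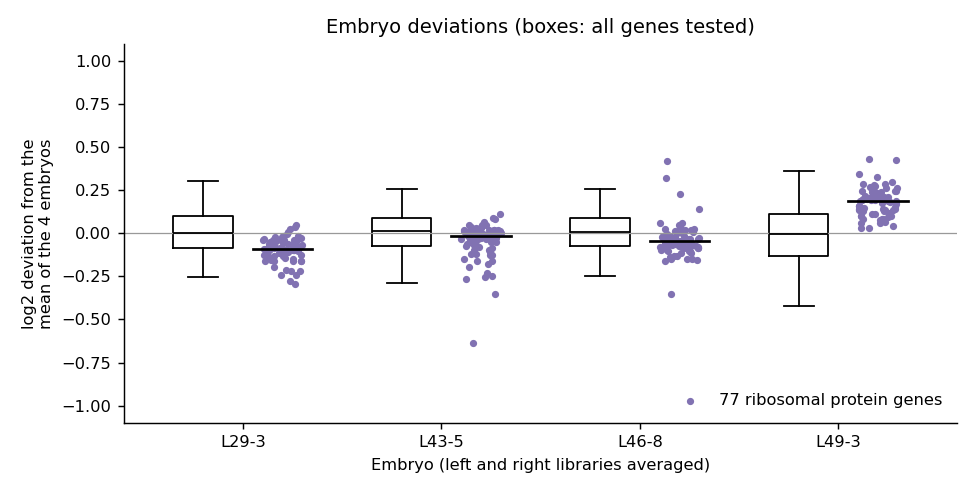
Log2 deviation of each embryo from the mean of the 4 embryos, after averaging its left and right library; points are the 77 members with their median as a bar, and boxes show the quartiles of all 9744 genes with whiskers at the 5th and 95th percentile. The members of L49-3 center on 0.19, while those of the other embryos center between -0.09 and -0.02.

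Rps9, Rplp1, Rpl6 and Rpl35 were among the members of smallest p between embryos. Rps9, a protein of the small subunit body, had 1548, 1816, 1703 and 2165 normalized counts on the left by embryo, and 1622, 1662, 1639 and 2139 on the right. Both L49-3 libraries exceeded the other 6 (unadjusted p = 0.000764, adjusted p = 0.115 in edgeR). Rplp1 likewise had 2010 and 2051 in L49-3 against 1483 to 1723 elsewhere (edgeR unadjusted p = 0.00105). Rpl6 had 2058 and 2052 against 1477 to 1907 (edgeR unadjusted p = 0.00107) and Rpl35 had 1067 and 1080 against 781 to 900 (edgeR unadjusted p = 0.00232).

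Rps6 differed least of the genes described, with 1260 to 1506 normalized counts and a deviation of 0.03 in L49-3. The higher values in L49-3 were present with each scaling, with 72 members highest there under DESeq2 size factors and 69 under library size alone. Without L49-3, 3 members had a p under 0.05 between embryos, against 4.44% of 10166 genes. Without L46-8, 42 of 77 members did (54.5%, against 13.3% of all genes) and 6 passed the adjusted threshold (7.79%, against 2.42%). Of the mitochondrial ribosomal genes, 26 of 77 were highest in L49-3, of the other TOP genes 11 of 16, and of the biogenesis factors 20 of 35; these differences from the members were not tested.

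L49-3 was also the embryo with the lowest totals, the lowest juxta-cardiac values given above and the highest neural tube values, 288 CPM on the left and 338 CPM on the right against 66.2 to 211 CPM elsewhere. All 5 tested endothelial genes and 6 of 7 tested cardiomyocyte genes were lowest in L49-3, with median deviations of -0.66 and -0.97 on the log2 scale. The near-identical rows took 1.36% and 1.27% of its counts, against 0.728% to 1.28% in the other libraries. The part of depth or tissue content in the higher ribosomal values was not tested, and embryo, dissection and library cannot be told apart.

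Members with and without a pyrimidine run at the start had similar medians. The 26 with a run had medians of -0.04 for the log2 fold change and 0.19 for the deviation of L49-3, and the 31 tested members without a run had -0.04 and 0.19. The 23 tested members with CCGGAAG had -0.06 and the 34 without it -0.03. All 3 members with an unadjusted p under 0.05 between the sides in edgeR, Rps2, Rpl27a and Rps10, hold it. Of the 60 members with an entry, 40.0% hold it. The 3 were picked by their p in these data, and neither a link to the sequence nor these medians were tested.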

How the data were processed

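The deposited values are raw counts of reads per gene. To make them, the authors prepared oriented poly-A libraries, mapped paired-end reads of 130 bases on GRCm38 (Hisat2), discarded duplicates and ran featureCounts. Tool versions, the strand setting and the handling of multi-mapped reads or of reads in overlapping genes are not given in the sources used here. Reads of a gene and of its pseudogenes, antisense partner or overlapping gene may therefore not be separated. Duplicate removal can lower the counts of short, abundant mRNAs.

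Symbols, positions and transcripts came from GENCODE vM21, promoter sequences from RefSeq (60 of 80 members matched). Near-identical rows were found with blastn 2.17.0 (at least 90% identity over at least 100 bases and at least 0.5 of the transcript, same strand). Levels are CPM per kilobase of exon.

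The left and right libraries were compared by edgeR 4.0.16 (R 4.3.3), with TMM, the quasi-likelihood test, embryos as blocks and Benjamini-Hochberg adjustment over the 9744 genes that reached 20 counts, normalized by DESeq2 size factors, in 4 or more libraries. Embryo terms were tested in the same fit. Ratios of single embryos use CPM scaled by TMM plus 0.5. The pairing comes from the labels, since both sides are of the same embryo; left and right deviations correlated across genes by 0.17, 0.19, -0.02 and 0.44 (L29-3 first, L49-3 last). Alternatives used DESeq2 1.42.0, limma 3.58.1, other scalings and filters, and each embryo left out. On simulated counts for the left and right comparison of 9744 genes, the test recovered 71.4% of 112 genes changed by 1 and 100% of 88 changed by 2 on the log2 scale, with 10 false calls. These counts had the same dispersion for all genes and, apart from library size, no difference between embryos. Changes as small as those of the members were not simulated, so the recovery of such changes is not known.

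Members and lists were chosen with earlier results of these data known. Genes named are those past the study's threshold, the 5 highest and 5 lowest by level, the 5 of smallest p between embryos, a fixed set of members with known roles, and listed genes past the threshold. The rule also names a member and a listed gene that are not reported here, and the plots by gene leave that member out.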

Additional observations from a re-analysis of the deposited data

Results flagged for a closer look

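In 8 of 154 groups of 4 libraries, the gap between 1 library and the other 3 was large against the range of all 4. Chance alone flags about 1 in 20 groups, and the 8 groups are near that share. A flagged gap can be small in itself, as for Rpl26 below. In 7 of the 8 the library set apart was that of L49-3, and it was the highest. On the left, normalized counts of L49-3 were 1067 for Rpl35, 526 for Rpl34, 1767 for Rps26 and 2010 for Rplp1, against at most 825, 397, 1279 and 1559 in the other left libraries. On the right, L49-3 had 796 for Rpl7a, 2139 for Rps9 and 773 for Rpl26, against at most 435, 1662 and 735. The last was the left library of L29-3 for Rpl24, lowest at 26.8 against 37.2 to 39.1.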

How the results depend on the processing

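Counts of called members depended on the filter and on single embryos. With no filter, 1 member and 1 family, both Rps2, had an adjusted p under 0.05 between sides (0 with the filter), 2 members passed the threshold of the study (1 with it, the second being Rpl24), and 15 members passed the adjusted threshold between embryos (0 with it). Calls also rose over all genes then, to 0.142% between sides and 2.69% between embryos. DESeq2 with the replicate block and edgeR with no replicate block called 0 members and 0 families past the threshold of the study. Over all genes these 2 fits called 0.606% and 2.39%, and with near-identical rows summed 0.603% and 2.43% of rows. In edgeR without the block, members with an unadjusted p under 0.05 fell from 3 to 1 and families from 5 to 0. Leaving out each embryo gave 1 to 2 members (2 without L29-3) and 1 to 2 families (2 without L43-5) past that threshold, 0 to 6 members between embryos (6 without L46-8, 1 without L43-5) and 0 adjusted calls between sides each time. The median log2 fold change ranged from -0.09 to 0.01 for members and from -0.13 to 0.01 for families, positive without L46-8, and the log2 ratio of the summed share from -0.07 to -0.00. Rps2 ranged from -0.66 to -0.18 and its family from -0.51 to -0.19, weakest without L43-5. Values changed sign in these ranges for Rpl17 (-0.057 to 0.40), the Rpl24 family (-0.30 to 0.066), Rpl38 (-0.034 to 0.014), Rpl39 (-0.19 to 0.071), Rplp0 (-0.038 to 0.035), Rps19 (-0.095 to 0.014), Rps27 (-0.091 to 0.079) and Rps4x (-0.081 to 0.027), and Rps27l (-0.32 to -0.07) passed without L43-5. The cause was not tested.

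Rpl24 had 18 to 59 counts per library and an SD of 0.51 for the log2 ratios of the embryos, and the part of depth in this spread was not tested. The intervals of 56 of 77 members excluded a 1.2-fold difference between sides and those of 21 did not, among them the deeply counted Rps2 and Rpsa, where log2 ratios of the embryos had an SD of 0.66 and 0.23.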
